A study of Mus musculus with 24 samples.

Results

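Proteasome subunits, activators and assembly factors were followed through mRNA level and ribosome footprints in N2a cells with and without the cap-binding protein eIF4E3. The genes were all those with a symbol running from Psma to Psmg followed by a digit, which gave 48 of the 12759 transcripts listed in the 8 count tables. They comprised 17 genes of the catalytic core, namely 7 alpha subunits, 7 constitutive beta subunits and 3 immunoproteasome subunits. A further 23 were regulatory genes, with 6 ATPases and 11 other subunits of the 19S particle, 5 activators and 1 inhibitor. The last groups were 7 dedicated assembly chaperones and Psmc3ip, which carries the prefix through its name as a partner of Psmc3 but codes for a meiotic recombination factor and not for a proteasome component.

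The proteasome degrades proteins tagged with ubiquitin. Its 20S core is a barrel of alpha and beta rings with the proteolytic sites inside, and the 19S regulatory particle caps the barrel, recognises the ubiquitin chain, removes it, unfolds the substrate with its ring of ATPases and feeds it into the core. Under interferon the 3 catalytic beta subunits can be exchanged for immunoproteasome subunits, which serve the production of peptides for MHC class I, and alternative caps such as PA28 (Psme1, Psme2 and Psme3) and PA200 (Psme4) can replace the 19S particle. mTOR, the kinase blocked by Torin1, drives cap-dependent translation by keeping eIF4E1 free of its inhibitory 4E binding proteins.

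N2a is a mouse neuroblastoma cell line. Control (ctrl) cells had been transfected with the empty pSpCas9(BB)-Puro vector, and KO cells with vectors that carried 3 gRNAs against exons 1, 2 and 4 of Eif4e3, so the KO cells are the puromycin survivors of a transfection and are not stated to be a clone. Both were seeded 48 h before a 2 h exposure to 250 nM Torin1 or to the solvent DMSO, and each replicate was a different passage. The design gave 3 RNA-seq libraries of total RNA in each of the 4 conditions (ctrl DMSO, ctrl Torin1, KO DMSO, KO Torin1) and 3 ribo-seq libraries in each condition except ctrl DMSO, with 2 (its replicate 2 was not analysed here).

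RNA-seq libraries held 17047795 to 28910907 counts and ribo-seq libraries 669010 to 5284909, with ctrl DMSO replicate 3 the shallowest. Eif4e3 mRNA was between 12.0 and 18.2 CPM (counts scaled to library size, with TMM factors) in ctrl and between 2.88 and 5.04 CPM in KO libraries, a log2 fold change of -2.05 ± 0.24 (SE) in DMSO. Footprints of the 11 neuroblastoma markers in the tables fell for 5 and rose for 2 under Torin1 in KO (40.6% of all transcripts called), fell for 4 in ctrl (15.6% of all called), and Dbh was lower in KO than in ctrl in DMSO (-1.10 ± 0.17) and in Torin1 (-1.57 ± 0.20). Of the markers of other cell types Ptprc, Epcam, Col1a1 and Gfap were not analysed here, and the endothelial Pecam1 was at 2.32 to 4.58 CPM in RNA-seq, and its footprints, on 0 to 18 counts, were called higher under Torin1 in ctrl (2.86 ± 0.71). The part of these markers in the proteasome results was not tested. Proteasome mRNAs made up 1.35 ± 0.108% (SD, n = 3) of all RNA-seq counts in ctrl DMSO, 1.24 ± 0.0489% in KO DMSO, 1.21 ± 0.0126% in ctrl Torin1 and 1.17 ± 0.0143% in KO Torin1. The ctrl DMSO RNA-seq libraries stood apart from each other, at 1.36%, 1.45% and 1.24%, and replicate 2 was the highest of its group for 38 of the 48 genes. All 48 genes passed the filter on low counts in every comparison. As the samples are bulk cultures, fewer cells with an mRNA and less mRNA per cell cannot be told apart.

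Sequences around the start of transcription are shown first for the 7 genes with fewer footprints in KO than in ctrl under Torin1 and for Psmd8 and Psma7, which fell under Torin1 in both cell populations, because TOP mRNAs, the best known mTOR-dependent class, begin with a C and a run of pyrimidines. Each line gives 15 bases before and the first 15 transcribed bases, in capitals, at the start annotated by RefSeq on GRCm38.p6.
Psmb6, chr11:70525342-70525371 (plus strand): agagagtgacggagcGCTTTACGACGGTTG
Psmb8, chr17:34198180-34198209 (plus strand): ttcttccaccccacaGCCCATTCTCTAGCT
Psmb5, chr14:54617981-54618010 (minus strand): cctgttgcccttgctAAACATGGCGCTGGC
Psmc5, chr11:106256170-106256199 (plus strand): atccctgccgagagaGGGAAGATGGCGCTT
Psmd2, chr16:20651637-20651666 (plus strand): gaggacaacgcgcgtGGCCTTCTGGGAAAA
Psmd4, chr3:95042600-95042629 (minus strand): aagactgagttctttGATTGGTGATGAGCA
Psme2, first of its annotated starts, chr14:55591087-55591116 (minus strand): cctagctcctcccttGGACAGCCCCTGATG
Psme2, the other start, chr14:55591007-55591036 (minus strand): ggggtactactcacgGTTGGTGGCCGGCCA
Psmd8, chr7:29180659-29180688 (minus strand): ttccgttcgccatttTGAATGACAGCAGAG
Psma7, chr2:180042450-180042479 (minus strand): cgtccccctgacgccAGACGCCAGCAGCGT
None of these windows starts with a C followed by 4 pyrimidines. Over the 41 proteasome genes with a promoter in the RefSeq table that start was found in 0, against 3.01% of 27025 genes, and a C as the first base in 8 (19.5%, against 18.9% of all). RefSeq and the Ensembl transcripts of the count tables do not always place the start at the same base. For Psmb6 the RefSeq start lies upstream, and for Psmb8 it lies downstream, inside the Ensembl transcript.

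Torin1 in KO cells gave the broadest footprint response of these genes. Of the 48, 27 fell and 2 rose (edgeR quasi-likelihood test, Benjamini-Hochberg adjusted p under 0.05), where 40.6% of all 10822 transcripts tested passed, 22.1% as lower and 18.5% as higher. The median log2 fold change of the 48 was -0.333 and that of all transcripts 0.016. In ctrl cells Torin1 gave 5 lower and 1 higher, with 15.6% of all 10693 transcripts called, 9.93% as lower and 5.69% as higher, and a median of -0.105 for the 48. With TMM scaling the share of the 48 called was 60.4% in KO, above that of all transcripts, and 12.5% in ctrl, below it. The 2 responses were compared through the interaction of genotype with treatment, which called none of the 48 at the adjusted threshold (0.114% of all transcripts). DESeq2 also called none (0.36% of all). At an unadjusted p under 0.05 there were 7 of the 48, beside 730 of all 10563 transcripts. Of the 48 estimates 41 were negative, beside 5555 of all 10563. Footprint values are scaled by TMM, and with library size as the only scaling all transcripts have a median change of 0.230 in ctrl and 0.265 in KO, in place of 0.017 and 0.016. The proteasome calls then become 13 lower and 4 higher in KO, where 49% of all transcripts are called. In ctrl they become 2 lower and 4 higher, where 22.2% of all are called. The share of the 48 called in KO is then below that of all transcripts, in place of above it. Every direction given here is relative to the bulk of transcripts.

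**Figure D1:**
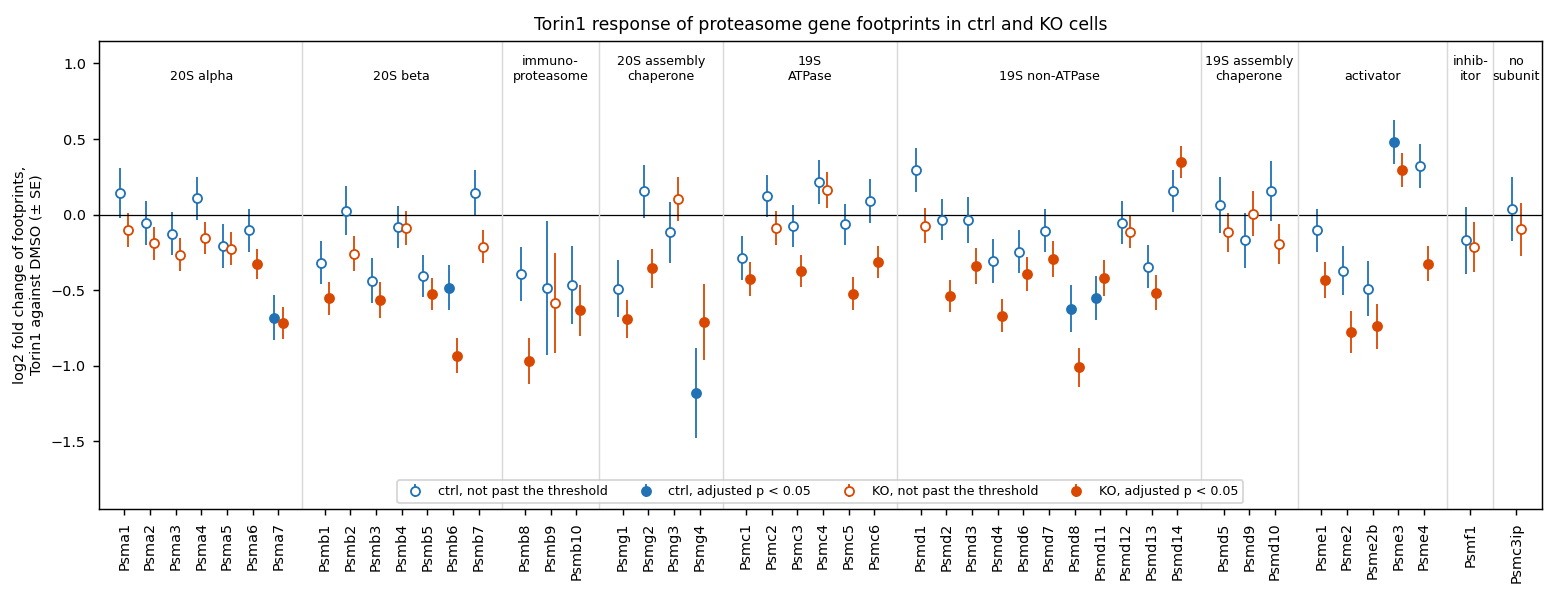
Log2 fold change of ribosome footprints, Torin1 against DMSO, for each of the 48 proteasome genes on the horizontal axis, ordered by role, in ctrl (blue) and KO cells (orange), with bars for SE and filled points for an adjusted p under 0.05. In KO cells 43 of the 48 estimates lie below 0, from -1.01 for Psmd8 to 0.35 for Psmd14.

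Among the constitutive 20S subunits, all 14 estimates in KO cells under Torin1 were negative and 6 passed. Psmb6, the caspase-like catalytic subunit beta 1, had footprints of 335, 305 and 297 CPM in KO DMSO and of 174, 166 and 156 CPM in KO Torin1, with no overlap. The log2 fold change was -0.93 ± 0.11 (SE; edgeR adjusted p = 4.44e-08). In ctrl cells Psmb6 went from 369 and 295 CPM to 262, 226 and 236 CPM (-0.48 ± 0.15, edgeR adjusted p = 0.0344). Psma7, the alpha 4 subunit, fell in both cell populations, from 494, 546 and 501 CPM to 330.0, 303 and 316 CPM in KO (-0.72 ± 0.11) and from 520.5 and 423 CPM to 323, 310.0 and 257 CPM in ctrl (-0.68 ± 0.15). Its interaction estimate was -0.01 ± 0.18. Psmb5, the chymotrypsin-like catalytic subunit beta 5, had 434, 407 and 401 CPM in KO DMSO and 297, 294 and 282 CPM in KO Torin1 (-0.53 ± 0.11). In ctrl its 509 and 469 CPM in DMSO lay above the 394, 365 and 349 CPM in Torin1 without passing (-0.41 ± 0.14, edgeR adjusted p = 0.0525), and with the replicate number as a block it passed (edgeR adjusted p = 0.0202). The third catalytic subunit, the trypsin-like Psmb7, gave no call, with 546, 588 and 578 CPM in KO DMSO and 565, 497 and 434 CPM in KO Torin1. The structural subunits Psmb1 (-0.55 ± 0.11), Psmb3 (-0.56 ± 0.12) and Psma6 (-0.33 ± 0.10) also fell in KO. Psma1, Psma2, Psma3, Psma4, Psma5, Psmb2 and Psmb4 did not pass, with log2 fold changes from -0.27 to -0.09.

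The immunoproteasome subunits were present at low level without any added interferon. Per kb of CDS, Psmb8 (beta 5i) had 87.1 ± 1.52 CPM per kb (SD, n = 2) of footprints in ctrl DMSO, against 617 ± 36.2 CPM per kb for its constitutive counterpart Psmb5, and Psmb9 (beta 1i) had 9.95 ± 7.09 CPM per kb. Psmb8 footprints were 62.8, 67.1 and 64.6 CPM in KO DMSO and 36.6, 32.1 and 32.0 CPM in KO Torin1, a fall of -0.97 ± 0.15 (edgeR adjusted p = 4.18e-06). Psmb10 (beta 2i) fell too, from 58.1, 46.2 and 43.8 CPM to 30.4, 37.3 and 28 CPM (-0.63 ± 0.17, edgeR adjusted p = 0.00302). Psmb9 rested on as few as 2 counts in a library, and its difference of -0.59 ± 0.33 was not detectable at this depth. In ctrl, none of these 3 genes passed under Torin1, with log2 fold changes from -0.48 to -0.39 and a median of -0.47. Their interaction estimates ran from -0.56 to -0.06, with a median of -0.13 and none called.

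The 19S particle held the largest decrease among the 48 in KO, Psmd8, and one of the increases, Psmd14. Psmd8 (Rpn12), a lid subunit, went from 126, 137 and 152 CPM in KO DMSO to 64.3, 65.1 and 80.0 CPM in KO Torin1 (-1.01 ± 0.13, edgeR adjusted p = 1.74e-07). In ctrl it went from 146 and 125 CPM to 91.2, 85.1 and 93.7 CPM (-0.62 ± 0.16). Psmd14 (Rpn11), the deubiquitinase of the lid, rose from 389, 362 and 389 CPM to 479, 491 and 501 CPM in KO (0.35 ± 0.10, edgeR adjusted p = 0.00764). In ctrl its values of 356 and 401 CPM and of 420.4, 400.2 and 434 CPM overlapped. Of the 11 non-ATPase subunits 8 fell in KO. The base subunits Psmd2 (Rpn1) at -0.54 ± 0.10 and Psmd4 (Rpn10, a ubiquitin receptor) at -0.67 ± 0.11 were among them, with Psmd3, Psmd6, Psmd7, Psmd11 and Psmd13 between -0.52 and -0.30. Psmd1 (-0.07) and Psmd12 (-0.12) did not pass. Of the 6 ATPases, which form the unfolding ring, Psmc1, Psmc3, Psmc5 and Psmc6 fell by 0.31 to 0.52 on the log2 scale, and Psmc2 (-0.09) and Psmc4 (0.16) did not pass. In ctrl none of the ATPases was called, and Psmd11 (-0.55 ± 0.15) was called beside Psmd8.

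Differences between subunits of the 19S particle widened under Torin1 in KO cells. In KO DMSO the footprint density per kb of CDS varied over the 17 subunits with a coefficient of variation of 34.3 ± 2.4% (SD over 3 libraries), and in KO Torin1 of 48.2 ± 0.609%. The ratio of the highest to the lowest subunit averaged 3.37 in KO DMSO and 8.07 in KO Torin1, where Psmd14 had 527 ± 11.8 CPM per kb and Psmd8 65.9 ± 8.36 CPM per kb. In ctrl the coefficients of variation were 34.3% and 39.4% in DMSO and 44.1%, 38.9% and 39.5% in Torin1, and they overlapped. The ratio in ctrl averaged 3.56 in DMSO and 5.29 in Torin1. These densities are a description without a test, and the subunits at the extremes were seen in the data. The 14 constitutive 20S subunits were more even, with a coefficient of variation of 20.7% to 26.5% over the 4 conditions. They too widened in KO, from 22.8 ± 1.81% in DMSO to 26.5 ± 0.141% in Torin1, without overlap between libraries. The ratio of the highest to the lowest 20S subunit averaged 2.23 in KO DMSO and 3.11 in KO Torin1. In ctrl the 20S coefficients overlapped, and the ratio averaged 2.22 in DMSO and 2.14 in Torin1. The median footprint density of the 20S subunits was 562 ± 69.0 CPM per kb in ctrl DMSO, 562 ± 11.3 in KO DMSO, 492 ± 25.5 in ctrl Torin1 and 465 ± 50.7 in KO Torin1. For the 19S subunits it was 241 ± 4.45, 260.4 ± 11.5, 230.5 ± 1.74 and 219 ± 21.6 CPM per kb. Without scaling beyond library size the 20S medians went from 518 to 527 CPM per kb with Torin1 in ctrl and from 515 to 500.3 CPM per kb in KO. The 19S medians then went from 222 to 247 CPM per kb in ctrl and from 239 to 235.3 CPM per kb in KO. In KO these unscaled medians overlapped between DMSO and Torin1 libraries. The lower level under Torin1 is therefore relative to other transcripts in both cell populations. At the mRNA level the 20S subunits varied more, by 32.6% to 34.9%, with Psma7 the highest in each of the 12 libraries.

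**Figure D2:**
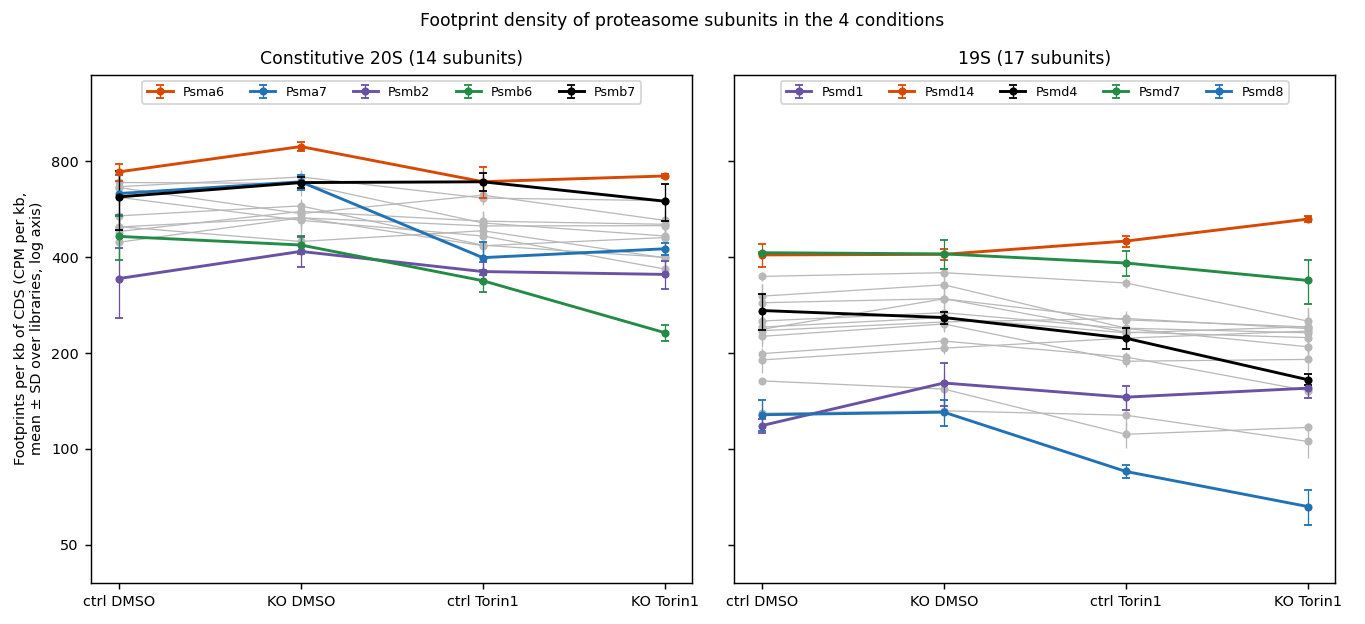
Footprint density per kb of CDS (CPM per kb, log axis, mean and SD over libraries) of the constitutive 20S subunits and of the 19S subunits in the 4 conditions, a line per subunit, with the named ones in colour. The 19S lines spread apart under Torin1 in KO cells, where Psmd14 is at 527 and Psmd8 at 65.9 CPM per kb.

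The activators split. Psme3 (PA28 gamma), the nuclear PA28 form, rose under Torin1 in both cell populations, from 253 and 232 CPM to 315, 371 and 334 CPM in ctrl (0.48 ± 0.15, edgeR adjusted p = 0.0325) and from 328, 296 and 279 CPM to 418, 376 and 326 CPM in KO (0.29 ± 0.11, edgeR adjusted p = 0.039). The KO groups overlapped by a single library on each side. The PA28 alpha and beta genes, which code for the interferon-inducible cap, fell in KO, Psme1 by 0.43 and Psme2 by 0.77 on the log2 scale. Psme2 had 114, 111 and 86.8 CPM in KO DMSO and 59.0, 63.2 and 62.9 CPM in KO Torin1. Psme2b, a single-exon copy of Psme2 on chromosome 11, fell by 0.74, but 80.29% of the 28-base stretches of the Psme2 CDS also occur in it, so reads of the pair could be divided between them and both values are uncertain. Psme4 (PA200) fell by 0.33 in KO and gave 199.7 and 170.3 CPM in ctrl DMSO against 233, 242 and 229 CPM in ctrl Torin1 without passing (0.32 ± 0.15). The inhibitor Psmf1 (PI31) was not called in any comparison.

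The 20S assembly chaperones Psmg1 (-0.69 ± 0.12), Psmg2 (-0.35 ± 0.13) and Psmg4 (-0.71 ± 0.25) fell in KO under Torin1, and Psmg3 did not pass (0.10 ± 0.14). Psmg4 was also the largest decrease among the 48 in ctrl, from 22.8 and 19.5 CPM to 10.1, 8.79 and 10.2 CPM (-1.18 ± 0.30, edgeR adjusted p = 0.0115), on as few as 12 counts in a library. The 3 chaperones of the 19S base, Psmd5, Psmd9 and Psmd10, were called in none of the main fits, and their footprint estimates in KO ran from -0.20 to 0.01. With the replicate block Psmd5 mRNA was called as lower under Torin1 in KO (-0.24 ± 0.08, edgeR adjusted p = 0.0423). Psmc3ip was called in none of the main fits, with a footprint change of -0.10 ± 0.18 in KO.

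The proteasome footprint result in ctrl depended on single libraries. Without ctrl DMSO replicate 3, which leaves 1 library in that group, the median of the 48 was -0.146 in place of -0.105. Without replicate 1, the deeper one, it was -0.028. Without ctrl Torin1 replicate 2 or 3 there were 2 and 1 calls in place of 6, beside 8.11% and 7.9% of all transcripts in place of 15.6%. In KO the count stayed between 21 and 29 over the 6 libraries left out in turn, with 32.5% to 38.5% of all transcripts called. Psme3, Psme4, Psmg4 and Psmd7 each lost their call in 4 of these 6 fits, Psmd3 in 3, Psmc6 and Psmg2 in 2, and Psma6 and Psmd6 in 1.

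At the mRNA level few of the 48 were called in the same comparisons. In ctrl cells under Torin1 46 of 48 estimates were negative, with a median of -0.243 that lay below the footprint median. None was called (2.73% of all 10958 transcripts passed, 0.675% as lower and 2.05% as higher). At an unadjusted p under 0.05 there were 18 of the 48, beside 2516 of all 10958. DESeq2 called 3, with 6.6% of all transcripts called. With the replicate block 4 passed (12.1% of all), namely Psmb10 (-0.48), Psme2 (-0.43), Psmb6 (-0.41) and Psmb5 (-0.40). Without ctrl DMSO replicate 3 the count was 22, with 13.3% of all transcripts called. Without replicate 2, the library with the highest share of proteasome mRNA, the median was -0.153. In KO cells 46 of 48 were negative again, the median was -0.123 (-0.063 with 37 of 48 negative without KO DMSO replicate 2), and 3 were called as lower (9.97% of all 11004 transcripts passed, 3.74% as lower and 6.23% as higher). These were Psme2 (-0.36 ± 0.09), Psmd7 (-0.27 ± 0.07) and Psmb2 (-0.25 ± 0.07), and 7 passed with the replicate block (16.3% of all). With KO DMSO replicate 1 or any KO Torin1 library left out none was called. Without KO DMSO replicate 2 there were 6 (13.3% of all). The interaction for mRNA called none (0% of all 11072 transcripts, and 0 with DESeq2). At an unadjusted p under 0.05 there were 0 of the 48, beside 108 of all 11072.

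**Figure D3:**
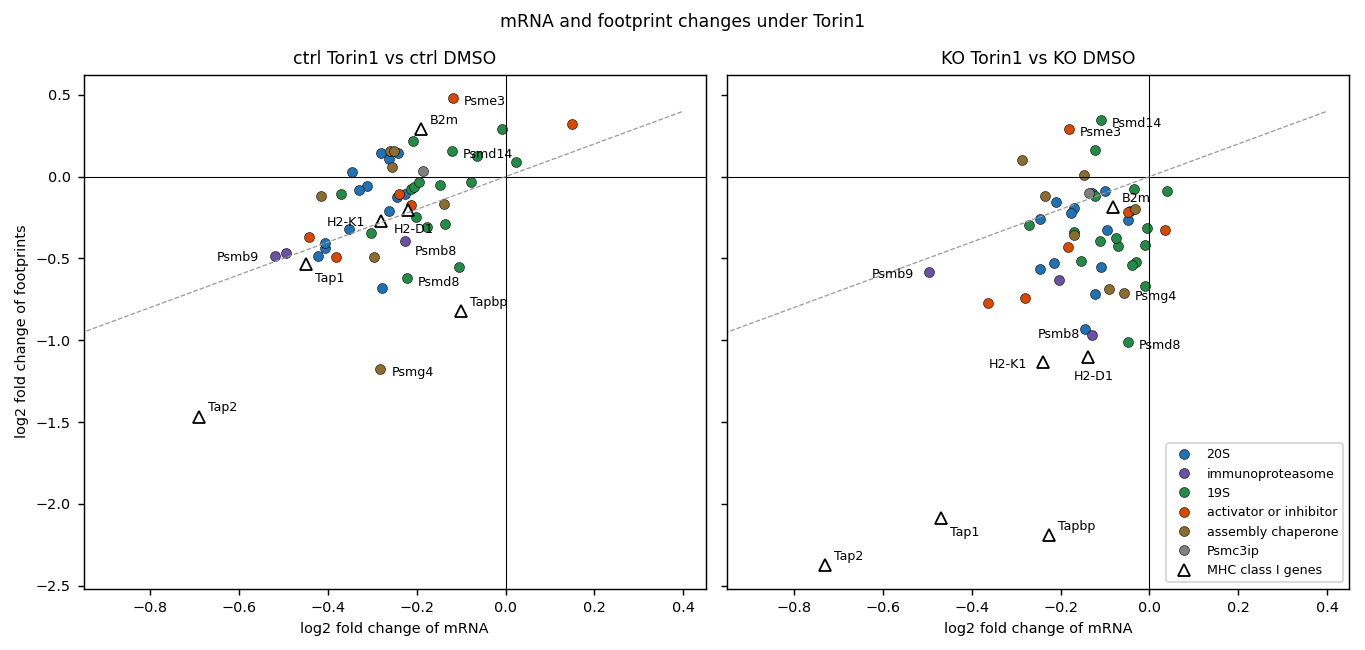
Log2 fold change of footprints (vertical axis) against log2 fold change of mRNA (horizontal axis) under Torin1 for the 48 genes in ctrl and in KO cells, coloured by role, with the dashed line marking equal change and triangles for the MHC class I genes. In KO cells mRNA changes of the 48 stay between -0.50 and 0.04, and footprint changes run from -1.01 to 0.35.

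Translation efficiency (TE), tested as the footprint change beyond the mRNA change in a single model of both assays, was called for 27.1% of the 48 genes under Torin1 in KO cells, near the 28.4% of all 10535 transcripts. Of the 48, 11 had a lower and 2 a higher TE (17.8% of all were lower and 10.6% higher), with a median of -0.221. The lower ones were Psmd8 (-0.96 ± 0.15), Psmb8 (-0.84 ± 0.16), Psmb6 (-0.78 ± 0.13), Psmd4 (-0.65 ± 0.13), Psmg1, Psma7, Psmd2, Psmc5, Psmb1, Psmd11 and Psmc1 (-0.35 ± 0.13). TE rose for Psmd14 (0.46 ± 0.11) and Psme3 (0.48 ± 0.13). With the replicate block 20 passed, 18 lower and 2 higher, with 32.5% of all transcripts called. Without scaling beyond library size 5 were lower and 6 higher, with 36.9% of all called. In ctrl cells Psme3 was the only one with a changed TE (0.60 ± 0.17, edgeR adjusted p = 0.0462; 4.68% of all 10432 transcripts called, 4.29% as lower and 0.383% as higher). It was not called with the replicate block (edgeR adjusted p = 0.14) or in 8 of 11 fits that left out a library. The interaction for TE called none of the 48 (0% of all 10376 transcripts). Of the 48 TE interaction estimates 43 were negative, with a median of -0.301 beside -0.00885 over all transcripts. The median of the 48 ran from -0.416 to -0.210 with each library left out in turn.

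Loss of eIF4E3 was compared first without Torin1. In DMSO none of the 48 was called between KO and ctrl in mRNA (0.0183% of all 10924 transcripts, 0.00915% in each direction). None was called in footprints (0.0279% of 10757, 0.0186% as lower and 0.0093% as higher) or in TE (0% of 10475), nor did DESeq2 call any. At an unadjusted p under 0.05 there were 6 of the 48 in mRNA, beside 646 of all 10924. In footprints there were 2, beside 850 of all 10757. The mRNA estimates were negative for 45 of 48, with a median of -0.184, and the TE estimates positive for 46 of 48, with a median of 0.264, and both rest on the ctrl DMSO libraries described above. Without ctrl DMSO replicate 2 the median of the mRNA estimates was -0.0761, and without ctrl DMSO replicate 3 of the ribo-seq the median of the footprint estimates was 0.0071 in place of 0.0858. The TE median was 0.158 without RNA-seq ctrl DMSO replicate 2 and 0.163 without ribo-seq ctrl DMSO replicate 3.

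Under Torin1, 7 of the 48 had fewer footprints in KO than in ctrl and none had more, where 6.03% of all 10792 transcripts were called, 4.01% as lower and 2.02% as higher. They were the catalytic subunits Psmb5 and Psmb6, the immunoproteasome subunit Psmb8, the 19S subunits Psmc5, Psmd2 and Psmd4, and the PA28 beta gene Psme2. The same 7 were called with DESeq2, without the filter and without further scaling.

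Psmb6 had 262, 226 and 236 CPM in ctrl Torin1 and 174, 166 and 156 CPM in KO Torin1 (-0.54 ± 0.11, edgeR adjusted p = 0.00136). Psmb8 had 50.7, 51.8 and 61.3 CPM against 36.6, 32.1 and 32.0 CPM (-0.70 ± 0.17, edgeR adjusted p = 0.00678). Psmd4 had 272, 236 and 245 CPM against 189, 192 and 178 CPM (-0.43 ± 0.11, edgeR adjusted p = 0.00961). In these 3 genes every KO library was below every ctrl library, and in DMSO the KO and ctrl values of Psmb6 and of Psmd4 overlapped, while every KO value of Psmb8 lay below both ctrl values without a call. Psmd2 had 515, 522 and 552 CPM in ctrl and 421, 397 and 428 CPM in KO (-0.35 ± 0.10, edgeR adjusted p = 0.0206). Psmc5 had 420.4, 391 and 402 CPM against 342, 305 and 274 CPM (-0.39 ± 0.10, edgeR adjusted p = 0.0134). Psme2 had 98.4, 80.5 and 94.2 CPM against 59.0, 63.2 and 62.9 CPM (-0.55 ± 0.14, edgeR adjusted p = 0.0103). These 3 did not overlap either. In DMSO Psmc5 and Psme2 overlapped, and Psmd2 was higher in each KO library than in ctrl without a call. Psmb5, whose KO values in DMSO were also all below the ctrl values without a call, had 394, 365 and 349 CPM against 297, 294 and 282 CPM (-0.34 ± 0.10, edgeR adjusted p = 0.0329), and its call was lost in 5 of the 6 fits that left out a library. Psmd2 was lost without ctrl Torin1 replicate 2 or 3 or KO Torin1 replicate 2, Psmc5 without KO Torin1 replicate 2 or 3, and Psmb8 without ctrl Torin1 replicate 3. Without KO Torin1 replicate 2 there were 4 calls. Psmb6, Psmd4 and Psme2 passed in all 6 such fits. The Psme2 value stays uncertain even so, since its reads could be divided with those of Psme2b.

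**Figure D4:**
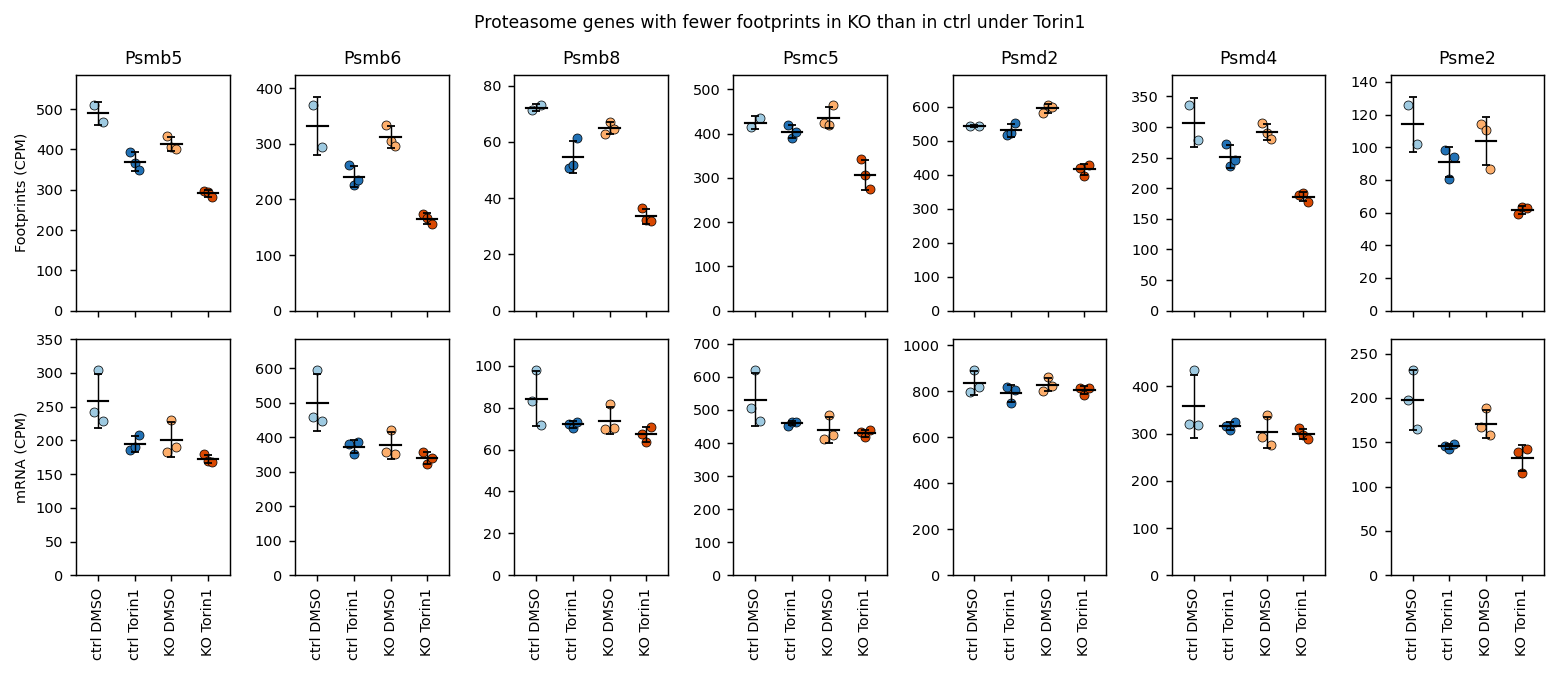
mRNA and footprint level (CPM, scaled by TMM) per library of the 7 genes with fewer footprints in KO than in ctrl under Torin1, in the 4 conditions, with lines for the mean and SD. In KO Torin1 the Psmb6 footprints lie between 156 and 174 CPM and in ctrl Torin1 between 226 and 262 CPM.

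At the mRNA level under Torin1 only Psmb3 was called as lower in KO (-0.22 ± 0.05, edgeR adjusted p = 0.0492). Of all 11007 transcripts 1.96% were called, 0.954% as lower and 1.01% as higher. Psmb3 was not called without the filter or without further scaling, and leaving out 5 of the 6 libraries in turn also ended the call. Of the 48 mRNA estimates 38 were negative, with a median of -0.084, beside 0.006 over all transcripts. The footprint estimates had a median of -0.076 with 32 negative, and the TE estimates a median of -0.035 with 27 negative. At an unadjusted p under 0.05 there were 14 of the 48 mRNAs, beside 1954 of all 11007. TE was lower in KO for Psmb8 (-0.60 ± 0.16), Psmd2 (-0.37 ± 0.09) and Psmb6 (-0.40 ± 0.11), with 2.85% of all 10509 transcripts called, 2.26% as lower and 0.59% as higher. DESeq2 called 6, 5 lower and 1 higher, with 4.81% of all called. Depending on the library left out 0 to 4 were called, and Psmb6 was lost in 11 of 12 such fits, Psmb8 in 8 and Psmd2 in 5.

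Comparisons of Torin1 with DMSO in KO and of KO with ctrl under Torin1 share the KO Torin1 libraries, and their values are given side by side for that reason only. Each of the 7 genes lower against ctrl was also lower against KO DMSO, by 0.52 (Psmc5) to 0.97 (Psmb8) on the log2 scale. Psmd8 and Psma7, which fell with Torin1 in both cell populations, gave -0.37 ± 0.14 (edgeR adjusted p = 0.106) and 0.09 ± 0.11 between KO and ctrl under Torin1.

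The 5′ transcript leaders (5′ TL) of the 48 genes were short, with a median of 112 nt against 171 nt over 12701 transcripts. The beta subunits had a median of 53 nt, the ATPases of 71.5 nt, the alpha subunits of 126 nt, the activators of 215 nt and the immunoproteasome genes of 455 nt. These lengths are those of the Ensembl transcripts. The RefSeq starts of Psmb8, Psmb9 and Psmb10 lie inside those transcripts, and so do those of Psmb5, Psmc5, Psme1 and Psmd13, among others. For Psmb6 the RefSeq start lies upstream. The leader lengths and medians given here are therefore uncertain, and they hold for the Ensembl transcripts only. Among the 7 genes lower in KO under Torin1, 5 had a leader under 112 nt, from 11 nt in Psmb6, 31 nt in Psmb5, 37 nt in Psmc5, 65 nt in Psmd2 and 81 nt in Psmd4 to 198 nt in Psme2 and 609 nt in Psmb8. The 27 genes that fell in KO under Torin1 had a median leader of 81 nt, the 2 that rose 234 and 312 nt, and the 19 others 125 nt. Across the 48 genes the leader length had a Spearman rho of 0.145 with the Torin1 change of footprints in KO, and of 0.226 with the difference of KO from ctrl under Torin1. Over all transcripts the values were 0.257 and 0.145. They are given as a description, since genes are not independent and share their libraries.

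Many proteasome genes are known to carry the antioxidant response element bound by NRF1 (Nfe2l1). Its core, TGACNNNGC on either strand, was found in 6 of the 41 promoters (14.6%), against 14.0% of all 27025 promoters of the same length, and CCAAT on either strand in 14 (34.1%), against 41.1%. The elements of 2 catalytic subunits and of Psme4 are shown with the motif in capitals.
Psmb5, chr14:54618023-54618052 (minus strand): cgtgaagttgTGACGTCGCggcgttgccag
Psmb6, chr11:70525338-70525367 (plus strand): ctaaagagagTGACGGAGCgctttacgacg
Psme4, chr11:30771758-30771787 (plus strand, motif on the minus strand): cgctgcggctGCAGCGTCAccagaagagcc
Nfe2l1 mRNA itself fell under Torin1 in ctrl (-0.81 ± 0.11) and in KO (-0.80 ± 0.07), and its TE rose (0.69 ± 0.17 and 0.82 ± 0.12).

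Genes that work with the proteasome were taken from a list of ubiquitin, shuttling, deubiquitinating and assembly factors, of which 28 are reported. In KO cells under Torin1 the footprints of 6 fell and of 9 rose, beside 40.6% called over all transcripts. Rps27a, a fusion of ubiquitin with a ribosomal protein (-2.01 ± 0.11), and the polyubiquitin gene Ubb (-0.48 ± 0.10) fell. The 19S ubiquitin receptor Adrm1 (Rpn13, -0.61 ± 0.13) and the deubiquitinase Uchl5 that binds it (-0.60 ± 0.13) fell, while the 19S-bound deubiquitinase Usp14 (0.32 ± 0.12) and the ligase Ube3c (0.32 ± 0.12) rose. The zinc finger genes Zfand2a (1.53 ± 0.29) and Zfand5 (0.86 ± 0.13) and the nuclear import factor Akirin2 (0.74 ± 0.14) rose as well. In ctrl, with 15.6% of all transcripts called, 1 fell, Rps27a (-2.06 ± 0.14), and 2 rose, Zfand5 (0.91 ± 0.17) and Rad23b (0.47 ± 0.14). Between KO and ctrl under Torin1, with 6.03% of all called, Ubb was lower (-0.38 ± 0.10) and the ubiquitin-activating enzyme Uba6 (0.75 ± 0.14) and Ecpas (0.40 ± 0.12) higher, and in DMSO none of the 28 differed in footprints.

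Psmb8 lies on chromosome 17 from 34197790 to 34201454 (GENCODE M21, GRCm38), between the peptide transporter genes Tap1 (34187553 to 34197225) and Tap2 (34203527 to 34216321), and Psmb9 lies on the other side of Tap1. The 5′ ends of Psmb9 and Tap1 overlap on opposite strands in GENCODE M21, but not at the RefSeq start of Psmb9. The neighbourhood of Psmb8 and Psmb9 is described with the MHC class I peptide loading genes Tap1, Tap2, Tapbp, B2m, H2-K1 and H2-D1. Footprints of 5 of these 6 were lower in KO than in ctrl under Torin1, Tapbp (tapasin) by 1.61, Tap1 by 1.35, Tap2 by 1.04, H2-D1 by 1.01 and H2-K1 by 1.00 on the log2 scale, and B2m was not called. Tapbp footprints were between 61.1 and 86.8 CPM in ctrl Torin1 and between 19.4 and 29.2 CPM in KO Torin1. None of the 6 differed in mRNA between KO and ctrl. The interaction with Torin1 was called for Tapbp (-1.35 ± 0.25, edgeR adjusted p = 0.00798) and H2-D1 (-0.88 ± 0.19, edgeR adjusted p = 0.0448), and was -0.85 for H2-K1 with DESeq2, which called it. H2-D1 and H2-K1 are paralogs that may share reads, so their counts are uncertain. For Psmb8 the interaction estimate was -0.56 ± 0.23 (edgeR adjusted p = 0.581).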

How the data were processed

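The authors trimmed footprints with cutadapt, aligned reads to mm10 with HISAT2 and to Ensembl canonical transcripts with bowtie2. The authors deposited raw counts per CDS, where a ribo-seq count is a P-site assigned by riboWaltz. The deposited count tables also hold the authors' fold changes and p-values from edgeR, and the TE tables hold values from RiboDiff. None of these was used. Replicate numbers repeat within a genotype in the header of the RNA-seq DMSO table, so its columns were used by genotype only.

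Counts were tested with edgeR 4.0.16 (R 4.3.3) by TMM scaling and the quasi-likelihood test over all transcripts with more than 1 CPM in all libraries of at least 1 condition, adjusted by the Benjamini-Hochberg method, with a threshold of 0.05. TE was tested as an assay by condition interaction, with TMM factors computed separately for RNA-seq and ribo-seq. Levels per kb are TMM-scaled CPM divided by the CDS length of GENCODE M21, matched for 12703 of 12759 transcripts. Scripts were tested on simulated data. Alternatives were DESeq2 1.42.0, no scaling beyond library size, no filter, a replicate block and leaving out each library. Figures were drawn with Python 3.11.15 and matplotlib 3.10.9.

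Per the labels a replicate number marks a passage, so numbers were taken to pair Torin1 and DMSO libraries of 1 genotype. Deviations from the condition mean of such pairs correlated at r from 0.0583 to 0.234 (ctrl) and from 0.165 to 0.237 (KO) in RNA-seq, and from 0.121 to 0.144 (ctrl) and from -0.00364 to 0.104 (KO) in ribo-seq. KO and ctrl are not stated to share a passage and were not treated as paired in the main fits. The replicate block, as an alternative, did join same-numbered KO and ctrl libraries in the comparisons of KO with ctrl and in the interaction. Total counts per library set the precision, and no interval beyond the SE of the fits is given.

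The genes and lists were chosen with earlier results of these data known. Genes named are the called ones, up to 4 per group and direction by smallest p, and whatever their p the catalytic, immunoproteasome, activator, inhibitor and chaperone genes. The others are named to account for all 48. RefSeq promoters (GRCm38.p6) were matched by symbol for 41 of the 48 genes. Psmb1, Psmb2, Psmb7, Psmc3, Psmd3, Psmd7 and Psmg2 had no entry. Paaf1 was not analysed here, and some genes of the lists are not reported here.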

Additional observations from a re-analysis of the deposited data

Results flagged for a closer look

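The footprint response to Torin1 differed between KO and ctrl cells for Tapbp, a peptide loading factor, and H2-D1, an MHC class I heavy chain, by the test of the interaction itself. For Tapbp the interaction was -1.35 on the log2 scale (edgeR adjusted p = 0.00798), with a footprint change under Torin1 of -2.19 in KO and -0.82 in ctrl. The call was lost in 3 of 11 fits that left out a library. For H2-D1 it was -0.88 (edgeR adjusted p = 0.0448), and the call was lost in 9 of 11 such fits and without scaling beyond library size. Its paralog H2-K1 did not pass in edgeR without a block, and DESeq2 (-0.85) and the replicate block (-0.85) called it. That block joins KO and ctrl libraries that share only a number. The causes were not tested.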

How the results depend on the processing

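Of 63 single values called, 58 stayed called with DESeq2, 60 without the filter, 39 without scaling beyond library size and 62 with the replicate block, and no called value changed sign. For mRNA, DESeq2 called 3 of the 48 under Torin1 in ctrl (6.6% of all transcripts) and 7 in KO (13.2%). Between KO and ctrl under Torin1 DESeq2 called 2 (3.11%). The replicate block called 4 (12.1%), 7 (16.3%) and 7 (9.46%) in these comparisons, and 7 between KO and ctrl in DMSO (7.93%). Between KO and ctrl under Torin1 no mRNA was called without the filter or without scaling (0 in each). Without scaling the footprint median under Torin1 was 0.108 in ctrl and -0.084 in KO, with 17 called in KO (49% of all transcripts). The TE median was then 0.277 in ctrl and 0.025 in KO. TE gave 0 calls in ctrl without the filter (4.45% of all) or with the block (4.38%), and 20 in KO with the block (32.5%). Between KO and ctrl under Torin1 it gave 6 with DESeq2 (4.81%) or the block (5.15%). The block changed no other count of calls by over 1.5 times. KO and ctrl libraries share only a number, with same-number r from 0.0787 to 0.737 (DMSO) and from 0.0398 to 0.296 (Torin1) for mRNA and from -0.0386 to 0.0618 and from -0.0282 to 0.0599 for footprints. Without scaling the median density of 19S subunits was 259 CPM per kb (mRNA, KO Torin1) and 239, 222 and 247 CPM per kb (footprints, KO DMSO, ctrl DMSO and ctrl Torin1), and of 20S subunits 371 (mRNA, KO Torin1), 515 and 527 CPM per kb (footprints, KO DMSO and ctrl Torin1, beside 518 in ctrl DMSO and 500.3 in KO Torin1).

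With each library left out in turn, mRNA calls ran from 0 to 22 under Torin1 in ctrl (22 without ctrl DMSO replicate 3), from 0 to 6 in KO and from 0 to 1 between KO and ctrl under Torin1, and the mRNA median between KO and ctrl in DMSO from -0.28 to -0.076. Footprint calls ran from 0 to 15 in ctrl, with a median from -0.146 to -0.028, from 21 to 29 in KO and from 4 to 6 between KO and ctrl under Torin1. The footprint median between KO and ctrl in DMSO ran from 0.0071 to 0.141 and that of the interaction from -0.315 to -0.134. TE calls ran from 0 to 1 in ctrl, from 12 to 23 in KO (23 without RNA-seq KO DMSO replicate 2) and from 0 to 4 between KO and ctrl under Torin1.

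The ctrl DMSO footprints rest on 2 libraries, of which 1 has 669010 counts, and a lone library left in a condition was assumed to vary like the others. Depth limits Psmb9, Psmg4 and Psmf1 most. In the tests of 2 or 3 libraries per condition small differences can pass unnoticed, so a gene without a call was not shown to be unchanged.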
